A study of Mus musculus with 21 samples.

Results

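The genes examined encode the proteasome and its partners. They are the protein-coding genes of GENCODE vM21 whose symbol starts with Psma, Psmb, Psmc, Psmd, Psme or Psmg and goes on with a digit. This rule gave 49 genes, of which 46 had at least 1 transcript in the merged long-read annotation, out of 10928 genes that had one. The genes without one were Psma8, the alpha subunit of testis, Psmb11, the catalytic subunit of the thymus, and Psme2b. One symbol caught by the rule, Psmc3ip, belongs to a meiotic recombination factor and not to a subunit. The libraries covered 7 stages with 2 short-read replicates each and 1 long-read pool each. Sperm came from the epididymis of males labelled DBA/2J (DBA/2N in the protocol), and oocytes at metaphase II came from superovulated C57BL/6J females of 3 to 5 weeks at 20 h after hCG. Embryos of such females mated with these males were flushed at 20 h and grown in KSOM medium to the 1-cell (24 to 26 h), 2-cell (46 to 48 h), 4-cell (54 to 58 h), 8-cell (68 to 70 h) and blastocyst (94 to 96 h) stages, times again counted from hCG. All animals were of wild-type strains, and each library was a pool of cells or embryos. RNA was converted to cDNA and amplified before sequencing.

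The proteasome degrades proteins that carry ubiquitin chains. Its 20S core is a barrel of outer alpha rings and inner beta rings, with the proteolytic sites on some of the beta subunits, and the 19S cap recognises, unfolds and feeds the substrate into the barrel. Early embryos are known for clearing proteins stored in the oocyte through this system while their own genome becomes active.

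The values are transcript abundances scaled to a common library total (TPM) that the authors obtained with salmon for each merged transcript, here summed per gene. TPM is scaled by transcript length and by library, so it allows levels of different genes to be set side by side. It keeps no read depth, and the reads behind a single value are unknown here. The study lists read totals per library, which were much higher in replicate 2 than in replicate 1 at the 1-cell and 2-cell stages. In pooled embryos, fewer cells and less RNA per cell cannot be told apart. Changes are differences in log2(TPM + 1) between stage means, which understate the changes of low genes. Replicates correlated with r = 0.979 at the 4-cell stage across 10009 genes but with r = 0.679 at the 2-cell stage. The 2-cell libraries also differed in the stage markers. The 8 listed 2-cell markers, among them the Zscan4 genes, summed to 33.4 TPM in replicate 1 and 666 TPM in replicate 2, and the 8 oocyte markers to 116 and 1327 TPM. Replicate 1 thus lay near the 1-cell and 4-cell libraries in its 2-cell markers (29.2 to 47.5 TPM). Counts of gene calls or median changes that involve this stage are also given with each 2-cell library left out. For isoform calls a range over the libraries left out is given at the end.

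Leukocyte markers were high in the sperm libraries. All 8 were at 1 TPM or more in both, their sum was 81879 and 16697 TPM, against 5.59 to 134.2 TPM in the other libraries, and Cd74 alone, the invariant chain of antigen-presenting cells, had 71096 and 14459 TPM. The 6 measured epididymis markers summed to 3734 and 584 TPM in sperm, at most 145.6 TPM from oocyte to 8-cell, and 1628 and 4050 TPM in the blastocyst libraries, where 1 of the 6 was at 1 TPM or more. The 8 sperm markers summed to 17427 to 21926 TPM in sperm and to at most 17.6 TPM elsewhere. None of the 8 cumulus cell markers had a merged transcript, so they were not measured.

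Proteasome transcripts made up a larger part of the transcriptome from the 4-cell stage on than before it. Summed over the 14 constitutive 20S and 17 19S subunits, the level was 2866 and 4839 TPM in the oocyte replicates, 4388 and 1832 TPM at the 1-cell, 3890.3 and 3269.8 TPM at the 2-cell, 11567 and 11459 TPM at the 4-cell, 16523 and 18827 TPM at the 8-cell and 19962 and 12258 TPM at the blastocyst stage. Every library from the 4-cell stage on lay above every earlier one. The sperm libraries were at 2659 and 2334 TPM. A large part of the sum in oocyte and 1-cell libraries came from a pair of genes, Psma7 of the alpha ring and Psmb6 of the beta ring. Without them the sums were 1195 and 1668 TPM in the oocyte, 2045 and 1201 TPM at the 1-cell and 3325 and 2919 TPM at the 2-cell stage, and then 9928 and 9495 TPM at the 4-cell stage.

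**Figure D1:**
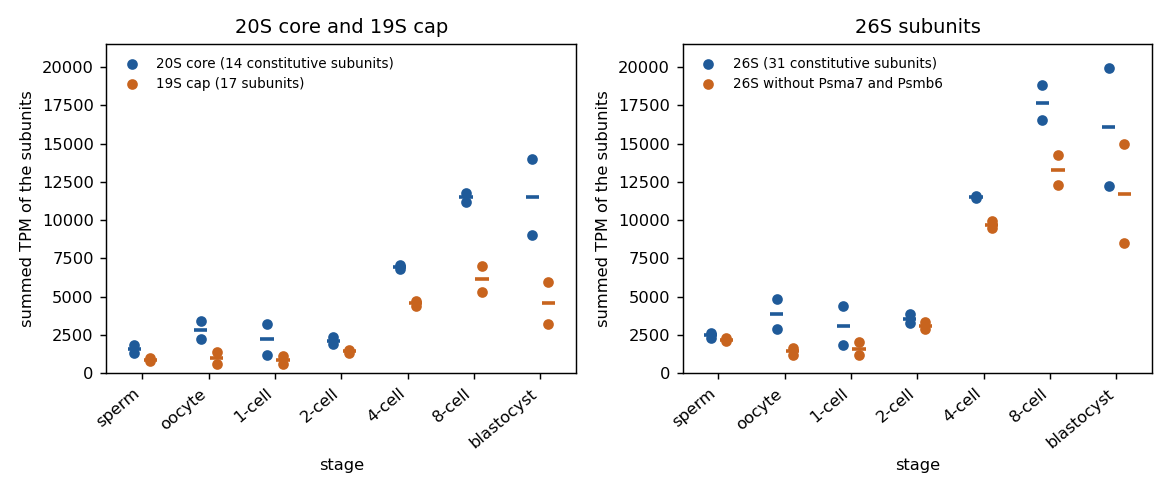
Summed TPM (y axis) of proteasome subunits by stage (x axis), each point 1 library and each bar the mean of 2. The left panel separates the 14 subunits of the 20S core from the 17 of the 19S cap, and the right panel shows all 31 with and without Psma7 and Psmb6. All libraries from the 4-cell stage on lie above the earlier ones in each series.

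The subunits, which are built into the particle in equal numbers, were far from equal in transcript level in the oocyte and came closer together later. In the oocyte the stage means of the 31 subunits ran from 0.617 TPM for Psmd13 to 2142 TPM for Psma7, and the SD of log2(TPM + 1) between subunits was 2.55. This SD was 1.95 at the 1-cell stage, 1.06 at the 2-cell, 1.1 at the 4-cell, 1.19 at the 8-cell and 1.22 at the blastocyst stage. It is a description over genes, and the + 1 narrows it where levels are low. In the oocyte 7 of the 31 had a mean under 5 TPM and 6 a mean over 100 TPM. From the 2-cell stage on none was under 5 TPM, and at the 4-cell stage 27 were over 100 TPM. From oocyte to blastocyst, the mean was lowest in the oocyte for 29 of the 46 genes and highest at the 8-cell stage for 16 and in the blastocyst for 15.

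**Figure D2:**
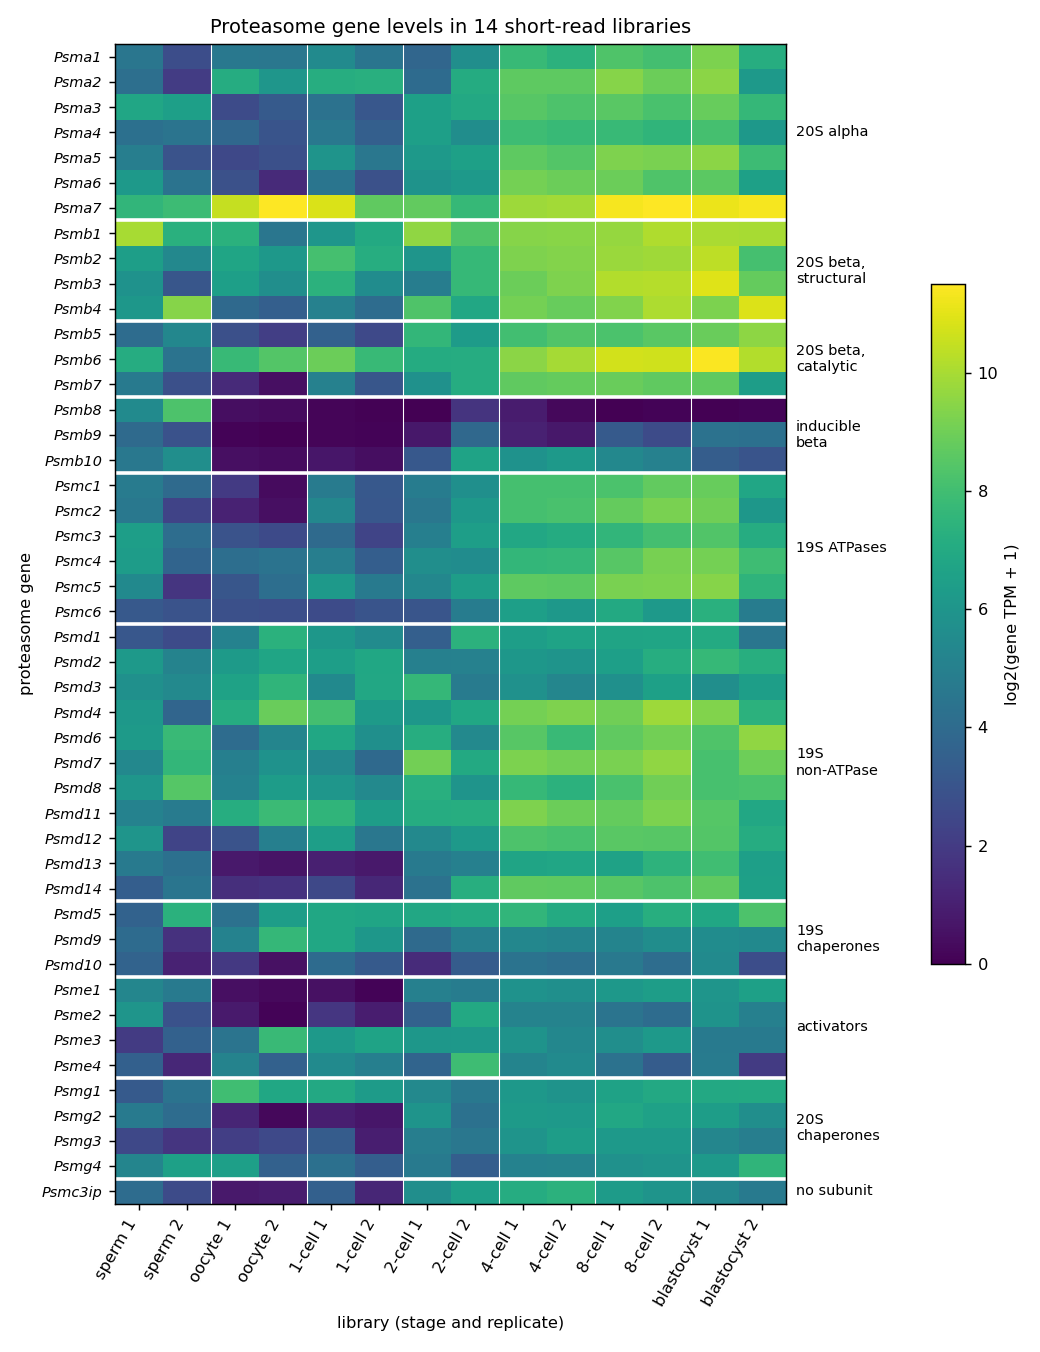
Level of the 46 measured proteasome genes, as log2(gene TPM + 1) in colour, in the 14 short-read libraries (columns), with genes in rows grouped by role. The 4-cell, 8-cell and blastocyst columns are bright for most 20S and 19S genes, Psma7 is bright already in the oocyte, and Psmb8 is above background colour mainly in sperm.

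In the alpha ring, which gates the entry to the barrel, Psma7 stood apart from its partners. Psma7 had 1456 and 2827 TPM in the oocyte, 1861 and 418 TPM at the 1-cell, 431 and 210.5 TPM at the 2-cell, 908 and 973 TPM at the 4-cell, 2565 and 2904 TPM at the 8-cell and 2273 and 2616 TPM at the blastocyst stage. It was the gene of rank 85 and 37 by TPM in the oocyte libraries, and held 88.3% and 96.2% of the summed TPM of the 7 alpha genes there, against 29.3% and 33.6% at the 4-cell stage. Its level had its lowest stage mean at the 2-cell stage, yet none of the 5 consecutive comparisons was called for it, and from oocyte to blastocyst the change was 0.26 ± 0.88 (SE), adjusted p = 0.818. Psma6 started low. It was at 6.21 and 1.57 TPM in the oocyte, 21.1 and 6.26 TPM at the 1-cell, 60 and 72.8 TPM at the 2-cell and 550.3 and 479 TPM at the 4-cell stage, a rise of 5.34 ± 0.85 (SE), adjusted p = 0.000197 from 1-cell to 4-cell. Psma3 was at 5.14 and 8.51 TPM in the oocyte and 19.3 and 7.67 TPM at the 1-cell stage, and 92.9 and 122 TPM at the 2-cell stage, which did not overlap. Psma2 varied widely between replicates, with 15.4 and 132 TPM at the 2-cell and 723 and 71.4 TPM at the blastocyst stage, and was not called in any comparison among these stages.

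The 3 catalytic beta subunits differed in when they became abundant. Psmb6, of the caspase-like site, was already at 214 and 344 TPM in the oocyte, 483 and 213 TPM at the 1-cell and 135 and 140.4 TPM at the 2-cell stage, before 732 and 992 TPM at the 4-cell and 1668 and 1653 TPM at the 8-cell stage. Psmb7, of the trypsin-like site, was at 1.56 and 0.375 TPM in the oocyte, 32.3 and 7.38 TPM at the 1-cell, 56.1 and 138 TPM at the 2-cell and 416 and 434 TPM at the 4-cell stage. Psmb5, of the chymotrypsin-like site, was at 6.05 and 3.4 TPM and 10.9 and 4.82 TPM in oocyte and 1-cell libraries and at 196 and 78.9 TPM at the 2-cell stage. From oocyte to blastocyst all 3 rose, Psmb5 by 6.73 ± 0.73 (SE), adjusted p = 9.73e-06, Psmb7 by 6.64 ± 0.89 (SE), adjusted p = 4.31e-05, and Psmb6 by 2.71 ± 0.78 (SE), adjusted p = 0.00904. Only Psmb5 was called from 1-cell to 2-cell (3.91 ± 0.73 (SE), adjusted p = 0.00131), Psmb7 being just outside the threshold (adjusted p = 0.0516). Of the structural beta subunits, Psmb4 rose from 32.3 and 16 TPM at the 1-cell to 319 and 117 TPM at the 2-cell stage.

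The inducible subunits Psmb8, Psmb9 and Psmb10, which replace Psmb5, Psmb6 and Psmb7 in the immunoproteasome, each had a course of their own. Psmb8 had 43.7 and 315 TPM in the sperm libraries, 0.354 and 0.258 TPM in the oocyte, 0 and 2.3 TPM at the 2-cell and 0 and 0.0957 TPM at the blastocyst stage. It did not pass the filter in the 12 libraries from oocyte to blastocyst. In sperm it made up 73.6% and 89% of the TPM of Psmb5 and Psmb8 together. These were the libraries with the leukocyte markers given above, though Psmb8 was higher in sperm replicate 2 and the summed markers in replicate 1. The part of such cells in the sperm values was not tested. Psmb9 was at or below 1.08 TPM in oocyte, 1-cell and 4-cell libraries, was at 0.665 and 13.6 TPM at the 2-cell stage and reached 8.44 and 5.24 TPM at the 8-cell and 19.5 and 18 TPM at the blastocyst stage, where the replicates were close. It rose from oocyte to blastocyst by 4.25 ± 0.79 (SE), adjusted p = 0.000505, and was at 0.71% and 1.53% of the TPM of Psmb6 and Psmb9 together. Psmb10 was under 1 TPM in all oocyte and 1-cell libraries, then at 8.02 and 102 TPM at the 2-cell, 56.9 and 74.4 TPM at the 4-cell, 40.4 and 31.8 TPM at the 8-cell and 9.66 and 7.02 TPM at the blastocyst stage. It rose from 1-cell to 4-cell by 5.50 ± 0.90 (SE), adjusted p = 0.000255, and from 8-cell to blastocyst its change of -1.99 was not called (adjusted p = 0.327) although the libraries did not overlap. The Psmb10 values sum a known form of 8 exons and 1011 bases and a new form of 3 exons and 493 bases. The known form was at 0.224 and 0.33 TPM at the 1-cell stage. It was at 5.45 and 34.2 TPM at the 2-cell and 26.8 and 35.7 TPM at the 4-cell stage. The new form was at 2.57 and 67.8 TPM at the 2-cell and 30.1 and 38.7 TPM at the 4-cell stage. The change of the known form alone was not tested.

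**Figure D3:**
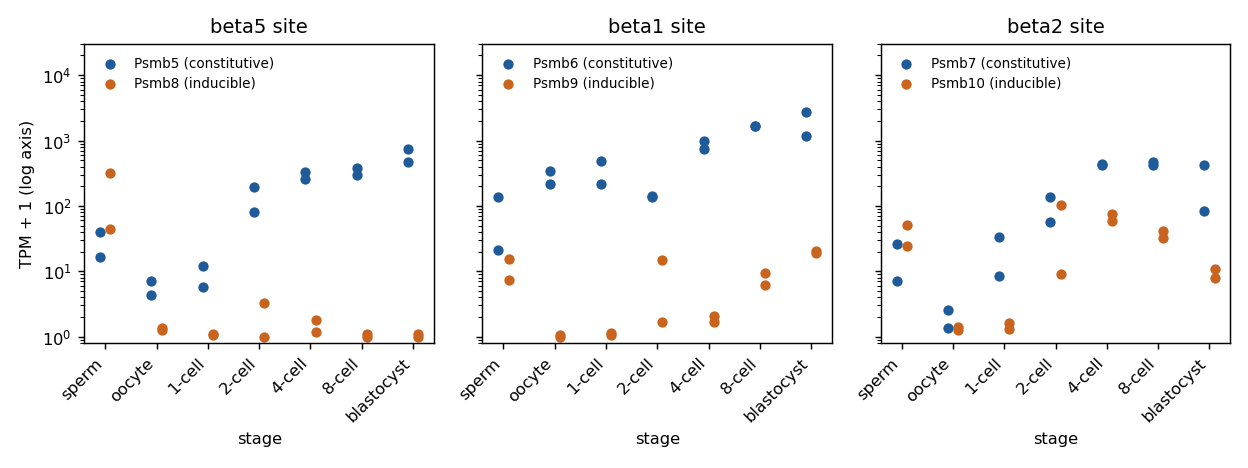
TPM + 1 on a log axis (y) of each constitutive catalytic subunit (blue) and its inducible counterpart (orange) by stage (x), each point 1 library. Psmb8 lies above Psmb5 in sperm and below it in all later libraries, Psmb9 is highest from oocyte on in the blastocyst, and Psmb10 has its highest stage mean at the 4-cell stage.

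The 6 ATPases of the 19S cap, which unfold the substrate and push it into the core, were low in the oocyte and high from the 4-cell stage on. Their summed level was 41.1 and 48.2 TPM in the oocyte, 187 and 61.7 TPM at the 1-cell, 177 and 366 TPM at the 2-cell, 1346 and 1360.1 TPM at the 4-cell, 2012 and 2512 TPM at the 8-cell and 2688 and 767 TPM at the blastocyst stage. All 6 rose from 1-cell to 4-cell and all 6 from oocyte to blastocyst. Psmc2 rose most of all members from oocyte to blastocyst (6.76 ± 0.98 (SE), adjusted p = 7.87e-05), from 1.15 and 0.384 TPM to 515 and 67.3 TPM. Psmc1 went from 2.87 and 0.279 TPM to 454 and 111 TPM (6.67 ± 0.86 (SE), adjusted p = 3.30e-05). The blastocyst replicates differed widely for these genes, but both lay above both oocyte values.

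The non-ATPase subunits of the cap ranged widely in the oocyte, from Psmd13 and Psmd14, at or below 2.2 TPM in both libraries, to Psmd4. Psmd13, a lid subunit, was at 0.729 and 0.506 TPM in the oocyte and 1.0 and 0.722 TPM at the 1-cell stage, then 25.8 and 31.5 TPM, 103 and 113 TPM, 98.8 and 173 TPM and 251 and 88.9 TPM at the later stages in order. It rose from 1-cell to 2-cell by 3.99 ± 0.69 (SE), adjusted p = 0.000816. Psmd14, the deubiquitinase that removes ubiquitin chains as the substrate enters, was at 4.59 and 1.41 TPM at the 1-cell, 19.4 and 149 TPM at the 2-cell and 415 and 404 TPM at the 4-cell stage, and its change of 6.81 ± 0.94 (SE), adjusted p = 7.69e-05 was the largest of any member from 1-cell to 4-cell. Psmd7, its partner in the lid, had 30.6 and 58.1 TPM in the oocyte and rose from 41.9 and 14.5 TPM at the 1-cell to 606 and 539 TPM at the 4-cell stage (4.47 ± 0.84 (SE), adjusted p = 0.000644). Psmd4, a ubiquitin receptor, was at 139.9 and 462 TPM in the oocyte and 540.1 and 626 TPM at the 4-cell stage. Psmd3 had its highest stage mean in the oocyte (98.1 and 183 TPM), Psmd2 and Psmd11 were at or above 76.6 TPM in both oocyte libraries, and none of these 4 was called from oocyte to blastocyst.

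Among the activators, which cap the core in place of 19S, the pair Psme1 and Psme2 was low in oocyte and 1-cell libraries. Psme1 was at 0.386 and 0.212 TPM in the oocyte, 0.44 and 0.0647 TPM at the 1-cell, 31 and 27 TPM at the 2-cell and 57.5 and 52.8 TPM at the 4-cell stage. Its rise from 1-cell to 2-cell (4.60 ± 0.63 (SE), adjusted p = 0.000225) was the largest of the members in that step. Psme2 was at 2.49 and 0.904 TPM at the 1-cell and 10.7 and 124 TPM at the 2-cell stage (3.89 ± 0.93 (SE), adjusted p = 0.00595), and its values are uncertain, since reads of its close copy Psme2b, which had no merged transcript, could be counted with it. Psme3, the nuclear activator, was instead highest in the oocyte (20.4 and 219 TPM) and at 24.9 and 25.8 TPM in the blastocyst, a change of -1.38 ± 0.90 (SE), adjusted p = 0.21 that was not called and whose libraries overlapped. Psme4, an activator tied to histone degradation, reached 242 TPM in 2-cell replicate 2 and was between 2.97 and 44.4 TPM in the other 11 libraries from oocyte to blastocyst. Its only merged transcript had 9 exons and 1802 bases and was contained in an annotated one, so the Psme4 values rest on a partial transcript.

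The assembly chaperones also differed in the oocyte. Psmg1 and Psmg2 act as a dimer on the alpha ring. Psmg1 was at 251 and 114 TPM in the oocyte and 42.3 and 23.7 TPM at the 2-cell stage, whereas Psmg2 was at 1.26 and 0.188 TPM and 60.9 and 18.9 TPM. Psmg2 rose from 1-cell to 2-cell (4.31 ± 0.72 (SE), adjusted p = 0.000684) and Psmg1 was not called (change -1.60, adjusted p = 0.091). Psmd9, a chaperone of the ATPase ring, had 33.7 and 203 TPM in the oocyte, 115 and 66.8 TPM at the 1-cell and 14.8 and 30.1 TPM at the 2-cell stage, without overlap between 1-cell and 2-cell libraries, and was not called there either (change -2.0, adjusted p = 0.0764). Psmc3ip, the meiotic factor, was at 0.745 and 0.823 TPM in the oocyte and peaked at 138 and 168 TPM at the 4-cell stage.

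Stage by stage, the first comparison asked which proteasome transcripts changed at fertilisation, from oocyte to 1-cell. No member was called by limma among the 45 tested, where 0.330% of all genes were called higher and 0.05% lower, and 6 members had an unadjusted p under 0.05. The median change was 0.40 on the log2 scale against 0.23 over all genes. Both 1-cell libraries lay above both oocyte libraries for 15 members, which happened for 28.6% of all genes, and below them for none, which happened for 9.03%. The changes with the smallest adjusted p were those of Psmb7 (3.15, adjusted p = 0.174) and Psmc2 (3.43, adjusted p = 0.182).

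From 1-cell to 2-cell, the step of genome activation, 15 of the 45 members rose and none was called lower. The share of 33.3% stands beside 26.1% of all genes called higher and 6.19% called lower, and the median change of 1.09 beside 0.72 over all genes. Both 2-cell libraries lay above both 1-cell libraries for 23 members (42.7% of all genes) and below them for 6 (15.4% of all genes), the 6 being Psma2, Psmb6, Psmd2, Psmd9, Psme3 and Psmg1. The members with the largest rises were Psme1, Psmb10, Psmg2, Psmd13 and Psmd14. The others called were Psmb5, Psme2, Psmc3ip, Psmd7, Psmb4, Psma3, Psmg3, Psmc3, Psma6 and Psmb9. By role, 2 of 7 alpha, 2 of 7 constitutive beta, 1 of 6 ATPase and 3 of 11 non-ATPase genes rose, as did both inducible beta genes tested. The count changed with the library left out: 6 members were called without 1-cell replicate 2, 15 without 1-cell replicate 1, 13 without 2-cell replicate 1 and 15 without 2-cell replicate 2. Without 2-cell replicate 1 the calls of Psma6, Psmb4 and Psmd7 were lost. Without 2-cell replicate 2 those of Psma6, Psmb9 and Psmc3 were lost, and Psma4 and Psmb1 were called higher and Psma2 lower. Psmd14 was no longer called without 1-cell replicate 2 (change 3.31, adjusted p = 0.072 by limma). With TPM over the transcripts of a library's own stage, 25 members could be tested, 3 were called higher and Psmd2 was called lower. Quantile normalization took the median change of all genes from 0.72 to -0.12. In the same way it took this median to -0.01 from 1-cell to 4-cell, 0.07 from oocyte to blastocyst and 0.01 from sperm to oocyte. With quantile normalization 13 members were called higher and 4 lower, the latter being Psmd2, Psmd9, Psmd10 and Psmg1, at this step, beside 15.9% and 17.6% of all genes on that scale.

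From 2-cell to 4-cell no member was called, although most were higher at the 4-cell stage. Both 4-cell libraries lay above both 2-cell libraries for 36 of 45 members, where this held for 30.7% of all genes, and 21 members had an unadjusted p under 0.05. The reverse held for 1 member and 22.1% of all genes. Of all genes 1.49% were called higher and 1.75% lower. The median change of the members was 1.64 against 0.04 over all genes. All 7 alpha genes, all 6 ATPases and the 3 catalytic genes were higher without overlap. The largest changes were 3.11 for Psma2, 2.94 for Psma6 and 2.89 for Psmd14, with adjusted p from 0.066 to 0.108. Without 2-cell replicate 2 the median change of the members was 1.87 against 0.50 over all genes. Without 2-cell replicate 1 it was 1.60 against -0.20. With quantile normalization 5 members rose, namely Psma1, Psma6, Psmb6, Psmc1 and Psmc5, while 6.08% and 4.65% of all genes were called higher and lower on that scale.

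The comparison of 1-cell with 4-cell does not use the 2-cell means, though the 2-cell libraries entered the spread estimate shared by the fit. The comparison called 27 of 45 members higher (60%) and none lower, beside 35.4% higher and 15.2% lower among all genes. The median change was 2.92 against 0.88. Both 4-cell libraries lay above both 1-cell libraries for 38 members (54.9% of all genes) and below them for 4 (28.9% of all genes). In this comparison 5 of 7 alpha, 3 of 4 structural and 2 of 3 catalytic beta genes, all 6 ATPases and 5 of 11 non-ATPase genes rose. After Psmd14 the largest rises were those of Psmd13 (5.87), Psme1 (5.50), Psmb10 (5.50) and Psmg2 (5.44). Psma7 had a change of 0.09 and Psmd9 of -1.21, neither of which was called. Left out in turn, the 4 libraries left 21 to 27 members called.

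The last consecutive steps called no member. From 4-cell to 8-cell the median change was 0.40 against -0.34 over all genes, 24 members were higher without overlap where this held for 22.9% of all genes, and 5 were lower where this held for 47.3%. A single member had an unadjusted p under 0.05, and 0.769% of all genes were called higher and 0.909% lower. In a fit on the 4 libraries of these stages alone, 6 members rose and 2 fell. They were Psma7, Psmb3, Psmb6, Psmb9, Psmc4 and Psmd8, and Psme4 and Psmc3ip, respectively. The share of all genes called in that fit is not given here. From 8-cell to blastocyst the median was -0.41 against -0.14, 5 members were higher without overlap (19.7% of all genes), 9 were lower (28.1% of all genes) and 1 had an unadjusted p under 0.05, while 1.51% of all genes were called higher and 1.49% lower. The blastocyst replicates differed, and the median difference of the members, replicate 2 minus replicate 1, was -1.20 on the log2 scale against -0.34 over all genes. Without replicate 2 the median change of the members was 0.20, and without replicate 1 it was -1.07. The difference between replicates correlated with GC content across transcripts at both stages (r = 0.52 at the 8-cell and 0.411 at the blastocyst stage), as it did at the 2-cell stage (r = -0.302), and its part in the members' values was not tested.

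Over the whole course from oocyte to blastocyst, 33 of 45 members (73.3%) rose and none was called lower, beside 35.4% of all genes called higher and 18.0% called lower. The median change was 3.70 against 0.82. Both blastocyst libraries lay above both oocyte libraries for 34 members (48.5% of all genes) and below them for 1 (26.8% of all genes). All 7 constitutive beta genes and all 6 ATPases rose. The 12 that were not called were Psma2, Psma7, Psmd1, Psmd2, Psmd3, Psmd4, Psmd9, Psmd11, Psme3, Psme4, Psmg1 and Psmg4, of which Psmd3 was the one that lay lower. Each of the 4 libraries left out in turn left 27 to 32 members called. These comparisons share stages and are not independent of one another.

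**Figure D4:**
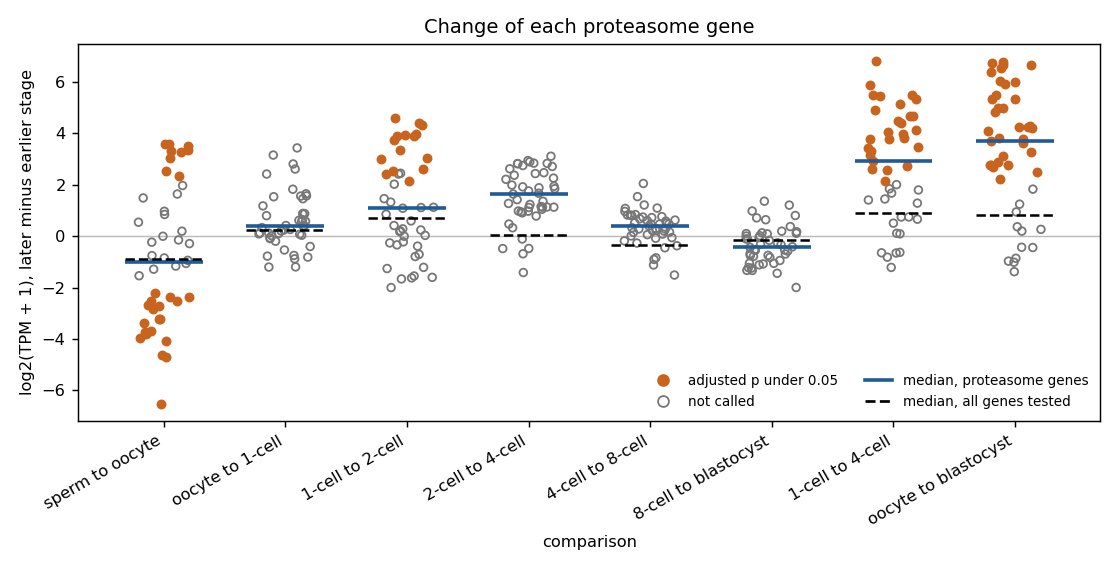
Change of each proteasome gene (points) in log2(TPM + 1), later minus earlier stage (y axis), in 8 comparisons (x axis). Filled points passed an adjusted p of 0.05, blue bars are the medians of the proteasome genes and dashed lines those of all genes tested. The medians part most in the 2-cell to 4-cell, 1-cell to 4-cell and oocyte to blastocyst comparisons.

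Sperm and oocyte differed in single proteasome genes, but the shares of members called were near those of all genes. In the main fit 19.6% were higher and 41.3% lower in the oocyte. In the fit with all 14 libraries, 9 of 46 members were higher in the oocyte and 19 lower, beside 17.4% and 36.3% of all genes, and the median change was -1.0 against -0.90. Without overlap 13 members were higher (26.3% of all genes) and 21 lower (49.4% of all genes). With quantile normalization the counts called were 8 and 11, beside 26.8% and 26.6% of all genes on that scale. With own-stage TPM, which could be tested for 23 members, 9 were higher and 2 lower, with medians of 1.02 for the members and 0.99 for all genes tested. Psmb8, Psmb9, Psmb10, Psme1 and Psme2 had no oocyte transcript of their own stage and could not be tested there. Higher in the oocyte by the largest margins were Psmg1 (3.57 ± 0.75 (SE), adjusted p = 0.000861), Psmd9 (3.57), Psma2 (3.49), Psmd1 (3.36) and Psme3 (3.33). Lower by the largest margins were Psmb8 (-6.51 ± 0.77 (SE), adjusted p = 4.63e-06), Psmb10 (-4.71), Psme1 (-4.62), Psmb4 (-4.07) and Psme2 (-3.96). Psmb8, Psmb9, Psmb10, Psme1 and Psme2, genes that interferon can induce, were among the 19 lower members, as was the structural subunit Psmb4. The sperm libraries also held the leukocyte markers given above, and the part of such cells in these values was not tested. The count depended on the libraries: 12 members were called without oocyte replicate 2, 18 without sperm replicate 2, 19 without sperm replicate 1 and 21 without oocyte replicate 1. Of the 10 genes with the largest margins, Psma2, Psmb4, Psmd1, Psmd9, Psme2 and Psme3 lost the call without at least 1 library (adjusted p = 0.0551 to 0.188 by limma), and Psmb8, Psmb10, Psme1 and Psmg1 did not.

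Other genes of the pathway were followed in a list of 27, of which 25 were tested. Of these, 1 rose and 1 fell from 1-cell to 2-cell, 8 rose and 1 fell from 1-cell to 4-cell, and 9 rose and 4 fell from oocyte to blastocyst, beside the shares of all genes given above for these comparisons, with medians of 0.34, 0.36 and 1.38. From 2-cell to 4-cell only Ufd1, a cofactor of the unfoldase Vcp, rose (3.42 ± 0.84 (SE), adjusted p = 0.045). The gene that rose from 1-cell to 2-cell was Rps27a, which encodes ubiquitin fused to a ribosomal protein (4.80 ± 0.65 (SE), adjusted p = 0.000203). The gene that fell was Ngly1, which encodes a deglycosylase that processes the transcription factor Nfe2l1 (-2.46 ± 0.74 (SE), adjusted p = 0.0211). From oocyte to blastocyst the genes that fell were Ngly1 (-3.06), Akirin2 (-2.54), which brings proteasomes into the nucleus, Ddi2 (-2.29), the protease that activates Nfe2l1, and the shuttle factor Ubqln1 (-2.0). Among the 9 that rose were the cap subunits Sem1 (3.18) and Adrm1 (4.57), the chaperone of core maturation Pomp (2.63), and the deubiquitinases Usp14 (4.52) and Uchl5 (4.10).

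The long reads gave the structures behind these values. A member had a long-read transcript of its own stage in 26 of 46 cases in the oocyte, 28 at the 1-cell, 37 at the 2-cell, 41 at the 4-cell, 42 at the 8-cell and 42 at the blastocyst stage, and 42 in sperm. Each stage had 1 pool, so these counts have no replicate check. The shares of all genes with such a transcript are not given here, and the study lists unequal long-read yields between the pools. The counts are thus no result about the members as such. Psmb8 had none from oocyte to blastocyst. The merged annotation held 90 transcripts of the 46 genes. Of these, 52 matched the intron chain of a GENCODE vM21 transcript, 2 were contained in one, 34 were new isoforms that shared at least 1 intron with a known transcript, and 2 overlapped without a shared intron. Several transcripts were found for 28 genes, with 6 for Psmd4 as the most. Transcripts of Psmb5, Psmd1 and Psmg3 also overlapped an exon of another gene on the same strand and were assigned to the member by shared introns, then by overlap.

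New isoforms that left out a single coding exon of the reference transcript allow the missing sequence to be shown. In the following lines capitals mark the skipped exon and small letters the 21 bases on either side in the GENCODE vM21 transcript, on mm10 coordinates.
Psma3 exon 7 of 11 (chr12:70988424-70988489, + strand): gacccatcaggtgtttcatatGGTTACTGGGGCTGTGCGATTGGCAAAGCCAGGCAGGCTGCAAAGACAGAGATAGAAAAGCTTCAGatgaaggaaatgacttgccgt
Psmc5 exon 10 of 11 (chr11:106262797-106262883, + strand): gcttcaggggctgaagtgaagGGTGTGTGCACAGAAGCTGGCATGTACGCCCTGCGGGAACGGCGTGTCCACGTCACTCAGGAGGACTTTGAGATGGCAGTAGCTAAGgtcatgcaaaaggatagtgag
Psmd12 exon 9 of 11 (chr11:107494630-107494804, + strand): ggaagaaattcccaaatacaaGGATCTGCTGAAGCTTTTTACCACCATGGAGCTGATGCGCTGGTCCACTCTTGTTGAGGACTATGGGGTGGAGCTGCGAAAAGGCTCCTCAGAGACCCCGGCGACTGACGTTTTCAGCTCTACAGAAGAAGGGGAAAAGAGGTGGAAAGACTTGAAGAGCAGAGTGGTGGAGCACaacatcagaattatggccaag
Psmb3 exon 4 of 6 (chr11:97711102-97711279, + strand): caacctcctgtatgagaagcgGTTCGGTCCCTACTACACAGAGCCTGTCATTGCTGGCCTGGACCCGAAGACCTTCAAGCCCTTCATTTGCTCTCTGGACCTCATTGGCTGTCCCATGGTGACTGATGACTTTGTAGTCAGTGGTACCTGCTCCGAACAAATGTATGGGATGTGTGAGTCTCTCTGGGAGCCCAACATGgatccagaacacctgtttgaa

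The exons of Psma3 and Psmc5 hold 66 and 87 coding bases, multiples of 3, so their loss leaves the reading frame in step. Those of Psmd12 and Psmb3 hold 175 and 178 coding bases and are not multiples of 3. The Psmc5 form without exon 10 varied early, at 62.9% and 27.1% of the gene's TPM in the oocyte, 27.8% and 44.3% at the 1-cell and 27.1% and 12.9% at the 2-cell stage, and had 29.1% and 18% at the 4-cell, 25.1% and 25% at the 8-cell and 30.3% and 26.6% at the blastocyst stage. The Psma3 form without exon 7 had 18.6% and 13.2% at the 4-cell and 9.79% and 5.61% at the 8-cell stage. Shares of isoforms with most exons in common rest on how salmon divided the shared reads.

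Whether the mix of isoforms changed was tested on the log2 ratio of each transcript to the others of its gene, for 72 member transcripts of 28 genes. From 1-cell to 2-cell 22 transcripts of 12 genes were called, beside 16.4% of all 11358 transcripts tested. In the other consecutive steps none was called by limma, with 5, 30, 9 and 6 at an unadjusted p under 0.05 and background rates of 0.132%, 0.317%, 0.308% and 0.326%, in the order of development. The pseudocount of 1 TPM on each side lets the ratio move with the level of a low gene, and 6 of the 22 calls went against the direction of the share itself. In 10 calls of 5 genes the share moved the same way by over 10 percentage points, and these genes were Psmb2, Psmb3, Psmd1, Psmd11 and Psmd12. The number called was 10 without 1-cell replicate 1 and 14 without 1-cell replicate 2. With a pseudocount of 0.1 it was 13.

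Psmd11, a scaffold subunit of the lid, had a different mix of last exons at the 2-cell stage. Its main form ended at position 80471969 of chromosome 11, and the other form was spliced from exon 13 to a last exon at chr11:80473093-80473244, which starts 1123 bases past the end of the main form. The stop codon lies at chr11:80471592-80471594 in exon 13, before both, so the forms differ in the 3' UTR. In GENCODE vM21 the last exon of the long transcript runs from 80471710 to 80473248 and thus covers both, and a shorter annotated transcript has the distal exon. Reads from a form that ran on to the annotated end cannot be told apart from the distal form within that exon. The distal form had 8.37% and 7.1% of the gene's TPM in the oocyte and 6.67% and 5.36% at the 1-cell stage, against 51.8% and 58.8% in 2-cell embryos, and then 26.3% and 29.9% at the 4-cell, 20.1% and 23.9% at the 8-cell and 17.5% and 15.1% at the blastocyst stage. The replicates were close at every stage from oocyte on and the 2-cell libraries lay above all others. The rise of the ratio from 1-cell to 2-cell was 4.09 ± 0.45 (SE), adjusted p = 0.00121, while the summed TPM of the gene was not called in that step (0.20 ± 0.77 (SE), adjusted p = 0.868).

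Psmb2, a structural beta subunit, gained a shortened form at the same stage. This form kept the first 3 exons and then used 2 exons at chr4:126702110-126702281 and chr4:126702688-126702992, both inside the intron between exons 3 and 4 of the reference transcript. Its share was 1.39% and 1.94% at the 1-cell, 18.7% and 21.6% at the 2-cell and 3.62% and 4.46% at the 4-cell stage, and the ratio rose by 3.59 ± 0.57 (SE), adjusted p = 0.00409. In sperm the share was 11.4% and 73.7%, with wide spread. A 3-exon form of Psmd1, a scaffold of the base, lay at the 3' end of the gene, where the stop codon is (chr1:86136656-86139297, 397 bases against 3247 for the main form). It was listed at 0 in sperm, oocyte, 1-cell and blastocyst libraries and had 4.2 and 147 TPM at the 2-cell, 28.4 and 49.2 TPM at the 4-cell and 21.6 and 3.05 TPM at the 8-cell stage (7.03 ± 1.35 (SE), adjusted p = 0.00869 for the ratio from 1-cell to 2-cell). The gene model Gm21972 overlaps this part of Psmd1 on the same strand, so the short form is uncertain as a Psmd1 transcript. The main form of Psmd1 had 67.2 and 46.1 TPM at the 1-cell and 5.96 and 19.7 TPM at the 2-cell stage, so the level of 167 TPM for the gene in 2-cell replicate 2 came mostly from the short form. The Psmd12 form without exon 9 had 0.58% and 0% of the gene's TPM at the 1-cell and 10.7% and 51.4% at the 2-cell stage (3.86 ± 0.92 (SE), adjusted p = 0.0205), and the Psmb3 form without exon 4 had 0% in both 1-cell libraries and 0% and 21.7% at the 2-cell stage (3.16 ± 0.92 (SE), adjusted p = 0.044). In both genes 2-cell replicate 2 had much the higher share, and for Psmb3 the share in 2-cell replicate 1 was 0%, as in the 1-cell libraries.

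**Figure D5:**
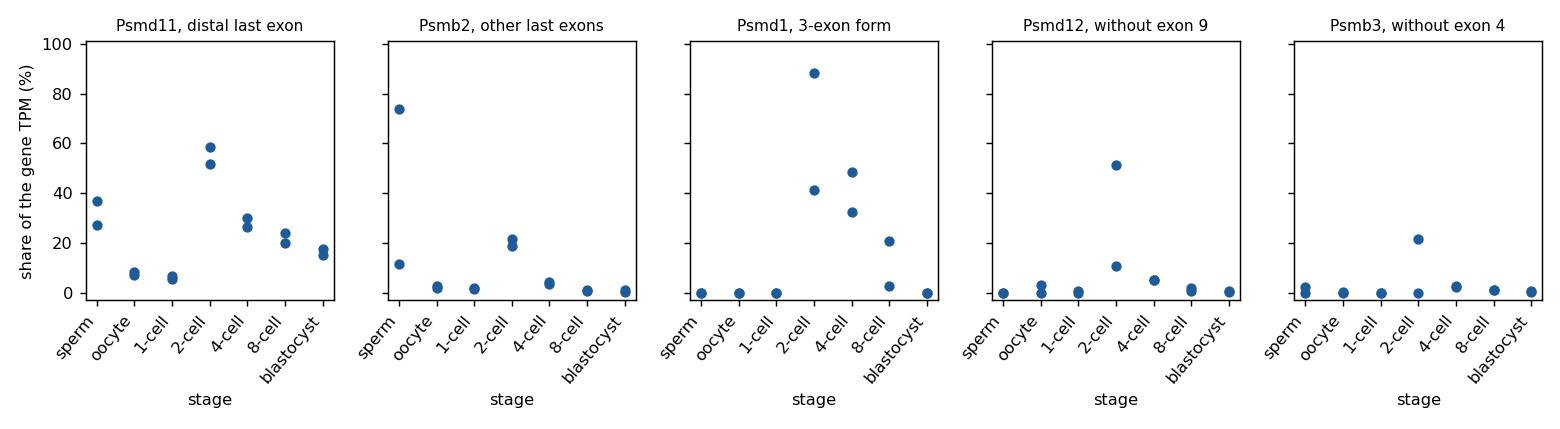
Share of a gene's TPM, in percent (y axis), held by 1 isoform in each library (points) by stage (x axis), for 5 genes whose isoform ratio was called from 1-cell to 2-cell. The 2-cell points of Psmd11 lie close together above all other stages, while those of Psmd1, Psmd12 and Psmb3 are far apart.

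Since Nfe2l1 and Nfe2l2, known regulators of proteasome genes, bind antioxidant response elements, the promoters were searched for the core of that element, TGACNNNGC, on both strands. RefSeq promoters (GRCm38.p6, 250 bases before to 50 after the start) matched 41 of the 49 genes, all but Psma8, Psmb1, Psmb2, Psmb7, Psmc3, Psmd3, Psmd7 and Psmg2. The core was in 6 of 41, or 14.6%, against 13.2% of all 17492 protein-coding promoters, and the 6 were Psmb5, Psmb6, Psmc6, Psmd9, Psmd12 and Psme4. The shares for other motifs, which are not contained in one another, were 36.6% and 39% for the CCAAT box (CCAAT), 56.1% and 46.3% for the GC box (GGGCGG), 9.76% and 13.3% for the TATA box (TATAAA), and 4.88% and 1.32% for the nuclear respiratory factor 1 site, of which the last is 2 members. A match is a run of letters and not a shown binding site. The 120 bases before the start are given for the 3 genes whose match lies wholly within them, with the match in capitals.
Psmb5 (chr14:54617996-54618115, - strand): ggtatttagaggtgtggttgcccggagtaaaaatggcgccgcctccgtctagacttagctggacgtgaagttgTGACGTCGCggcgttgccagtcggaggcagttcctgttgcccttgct
Psmb6 (chr11:70525237-70525356, + strand): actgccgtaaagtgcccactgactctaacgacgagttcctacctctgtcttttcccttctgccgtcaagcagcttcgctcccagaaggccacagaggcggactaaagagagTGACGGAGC
Psmd9 (chr5:123228070-123228189, + strand): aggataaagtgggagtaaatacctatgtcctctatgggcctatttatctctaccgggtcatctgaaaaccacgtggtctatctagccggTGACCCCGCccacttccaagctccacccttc

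The match began 47 bases before the start in Psmb5, 9 in Psmb6 and 31 in Psmd9. These 3 genes took different courses: Psmb5 and Psmb6 rose from oocyte to blastocyst, with Psmb6 from a higher oocyte level, and Psmd9 had its highest stage mean in the oocyte.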

How the data were processed

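RNA from pooled sperm, oocytes and embryos was amplified by Smart-seq2 and sequenced as short reads (14 libraries, 2 per stage) and long reads (7 pools, 1 per stage). Per the labels and the study's methods, long reads were mapped to mm10 and merged into 1 annotation, against which the authors quantified the short reads with salmon. The deposited values are TPM per merged transcript, and a further set of tables gives TPM over the transcripts of the library's own stage. TPM keeps no depth, so no counting interval could be given, and no count test was run.

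Merged transcripts were assigned to GENCODE vM21 genes by same-strand exon overlap, and their TPM was summed per gene. Genes with at least 1 TPM in at least 2 libraries were tested with limma 3.58.1 (R 4.3.3; lmFit, contrasts.fit and eBayes with trend) on log2(TPM + 1), with stage as the term. The 12 libraries from oocyte to blastocyst were fitted together, and sperm entered a second fit of 14 libraries. P-values were adjusted by the Benjamini-Hochberg method over all genes of a comparison and called under 0.05. The isoform mix was tested with limma on log2 ratios of transcript to other transcripts, with eBayes without trend. The filter there was at least 1 TPM in at least 2 libraries for the gene as a whole. "Without overlap" means that both libraries of a stage lay on one side of both of the other. Genes were named by role, by the 5 largest called changes in each direction and, after their values were seen, where levels stood apart. The members, the list of other pathway genes, the markers and the motifs were chosen with earlier results of these data known. Some genes of the pathway list are not reported here. The study collected 2 batches of samples per stage and sequenced part of each batch's cDNA as short reads. It does not state that the batches came from separate animals. The p-values thus measure the spread between these libraries, which may be partly technical. Tables were drawn up with Python 3.11.15 and pandas 2.3.3. The scripts were tested on data simulated with each stage's spread. At 1-cell to 2-cell, 96 of 100 genes with a log2 change of 4 were recovered, beside 76 false calls. For isoform ratios it was 177 of 200, beside 83 false calls. The genes changed in the simulation had earlier levels well above the filter. The recovery of genes near the floor or of smaller changes is not given here. Gene tests gave 28 false calls at sperm to oocyte, 21 at 2-cell to 4-cell and at most 7 elsewhere. Calls at 1-cell to 2-cell are thus less certain than their adjusted p states. Alternatives were another pseudocount, other filters, quantile normalization, fits on 4 libraries, weights by stage, a replicate block, own-stage TPM, stricter assignment and leaving out each library.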

Additional observations from a re-analysis of the deposited data

How the results depend on the processing

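Limits come from 2 libraries per stage and from the 2-cell stage, where they differed most. Pairs of stages compared are written with a slash. The share of all genes called is not given for most of the settings below. Counts under them show only how the calls depend on the setting. Members called with each library left out in turn ranged from 0 to 0 at oocyte/1-cell, 6 to 15 at 1-cell/2-cell, 0 to 11 at 2-cell/4-cell, 21 to 27 at 1-cell/4-cell, 27 to 32 at oocyte/blastocyst and 12 to 21 at sperm/oocyte. For isoform ratios the range was 10 to 20 at 1-cell/2-cell and 0 to 3 at 2-cell/4-cell. At 4-cell/8-cell and 8-cell/blastocyst it was 0 to 0 for genes and for isoform ratios. With own-stage TPM, a gene with no transcript in the annotation of a stage has no value there and could not be tested. This gave 4 calls of 25 members at 1-cell/2-cell (3 higher, 1 lower), 13 of 26 at 1-cell/4-cell (12 higher), 14 of 25 at oocyte/blastocyst (13 higher) and 11 of 23 at sperm/oocyte (9 higher). With weights by stage, 8 were called at 1-cell/2-cell, 7 at 4-cell/8-cell (5 higher, 2 lower) and 16 at sperm/oocyte (5 higher, 11 lower). On 4 libraries alone, 2 were called at oocyte/1-cell and 8 at 4-cell/8-cell. Those at oocyte/1-cell were Psmb7 and Psmc2. Quantile normalization called 5 at 2-cell/4-cell. A pseudocount of 0.1 gave 13 isoform calls at 1-cell/2-cell and 1 at 8-cell/blastocyst. The cause of the other shifts was not tested. Replicate numbers were not used to pair the libraries in the main fit. Of 15 pairs of stages, same-numbered libraries had deviations with r over 0.1 in 5 (r = -0.55 to 0.48). A negative r can also arise where batches carry opposite numbers at the stages compared. These values thus do not show whether batches were shared between stages. Numbers were taken from the titles, and the file names give the 8-cell libraries the opposite numbers. Among pairs of stages without it, r also ran down to -0.55. With a replicate block, 14 members were called at 1-cell/2-cell, 26 at 1-cell/4-cell, 33 at oocyte/blastocyst, 27 at sperm/oocyte and 0 in the other steps, with 20 isoform calls at 1-cell/2-cell. Of the 25 called changes named as the 5 largest of a direction and comparison, 293 of 305 values that could be fitted under the alternatives kept their direction and call, and the 12 others lost the call with 1 library left out.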
